A study of Mus musculus with 60 samples.

Results

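The genes described here were 33 lysosome and autophagy genes, chosen as a list of known components and matched by gene symbol in the deposited count table. All 33 were found among its 47729 mouse genes. They comprised 8 lysosomal hydrolases, 7 genes of the lysosomal membrane, cholesterol transport and hydrolase cofactors, 4 genes of the vacuolar proton pump (V-ATPase), 2 transcription factors, 6 genes of the ATG8 family and its cargo receptor Sqstm1, and 6 genes of the core autophagy machinery. Their values were taken in single tumour cells recovered from bone and compared by dye content, first in all cells and then without the cells that held Cd74 counts.

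PyMT-Bo1, a mouse mammary tumour line, was stained with the membrane dye DiD and delivered by intracardiac injection to female wild-type C57BL6 mice aged 8 to 10 weeks. DiD is diluted at each division. Per the methods, the line carried luciferase, eGFP, a nuclear mApple and Thy1.1, and cells negative for the leukocyte antigen CD45 and positive for Thy1.1 were sorted singly after 11 days. Cells came from femurs and tibias of 5 mice, and 32 cells that had kept the dye (DiD+, labelled dormant, DiD intensity High) and 28 that had lost it (DiD-, labelled proliferative, DiD intensity Low) were sequenced. Both groups therefore came from the same stained line, but how much each mouse gave to each group is not stated. No mouse is named for a cell, so each group is 1 sample and no test was run. Poisson intervals on summed counts cover counting error only. Intervals on shares of cells treat cells as independent draws, and neither kind covers variation between mice.

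Lysosomes break down proteins, lipids and glycans with hydrolases that work at the acid pH set by the V-ATPase. In autophagy, a double membrane decorated with lipid-bound ATG8 proteins encloses cytoplasm and fuses with the lysosome, and receptors such as p62, the product of Sqstm1, tether cargo to the ATG8 proteins and are degraded with it. The transcription factors TFEB and TFE3 activate many of these genes by binding a palindromic E-box, which has the core CACGTG.

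That element was searched for in RefSeq promoter windows (GRCm38.p6, 250 bases before to 50 after the start), which were found for 27 of the members. The core CACGTG, a palindrome that reads the same on both strands, lay in 10 of the 27 (37%), against 8.09% of 27025 genes with a window. The longer palindrome TCACGTGA, which contains the core, lay in 5 of the 27 (18.5%), against 1.12% of all. The 4 members shown are those with the longer palindrome whose DiD+ to DiD- ratios without the Cd74 cells were farthest from 1, printed as 30 bases on the gene's strand with the palindrome in capitals.
Atp6v1a: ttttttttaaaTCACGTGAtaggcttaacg
Atp6v0d1: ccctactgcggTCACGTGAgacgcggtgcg
Ctsa: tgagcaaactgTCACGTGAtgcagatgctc
Mcoln1: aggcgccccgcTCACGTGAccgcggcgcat
The stretches lie at chr16:44139373-44139402 (minus strand), chr8:105566050-105566079 (minus), chr2:164833749-164833778 (plus) and chr8:3500462-3500491 (plus). The palindrome begins 132, 4, 13 and 46 bases before the RefSeq start of each gene, in that order, and Ctsa has 2 copies in its window. The ratios of these carriers differed in size and sign. Summed levels without the Cd74 cells gave a log2 ratio of 0.79 for Atp6v1a, 0.37 for Atp6v0d1 and 0.33 for Ctsa and -0.10 for Mcoln1, which turned to 0.04 when DiD- cell 71 was left out. Ctsd, the remaining carrier of the longer palindrome, had -0.09. Members with the core alone went both ways, from -0.62 for Gaa to 0.34 for Atg5. Sqstm1, Map1lc3b, Gabarap and Gabarapl1, described below, had no core in their windows. Whether the element bears on the ratios was not tested.

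The cells held between 2276789 and 7794219 counts on mouse genes, with medians of 4653711 in DiD+ and 4440161 in DiD-. All held Krt8, an epithelial keratin (572 to 31411 counts), and 59 of the 60 had a count of a transgene. Of 6 epithelial markers, Krt8 among them, cells held only 1 to 3 at 10 counts or more. Krt7 and Epcam were at 0 in both groups, and Cdh1 was at 0 in all cells without Cd74. Krt18 ranged from 0 to 23788 counts. Cd74, the invariant chain of antigen-presenting cells, had 124 to 12721 counts in 6 DiD+ cells and 860 in 1 DiD- cell, and 0 in every other cell. The 6 DiD+ cells held 11 to 14 of 14 macrophage markers at 10 counts or more, with summed levels of 1294 to 18840 CPM (counts per 1000000 mouse-gene counts), and the DiD- cell held all 14 (1828 CPM). Cd74 is itself among these 14 markers and in their sums, so its presence in these wells follows from how they were chosen. Other cells held at most 4 of the 14 and at most 63.1 CPM in all, with Adgre1, Fcgr1 and Ms4a7 at 0 in both groups. Erythroid markers moved with the same wells in part, reaching 174300 CPM in a DiD+ cell with Cd74, but also 46540 CPM in a DiD- cell without it. Of 7 osteoclast markers, no cell held more than 2. The Cd74-positive wells made up 19.95% of all DiD+ counts and 2.302% of DiD- counts, and all of them also held Krt8 (6505 to 12958 counts). The 1 cell of the 60 with no transgene count was one of them, DiD+ cell 30, which also held all 7 erythroid markers.

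Levels were compared as the log2 ratio of DiD+ over DiD-, taken on counts summed over a group in CPM with 1 CPM added, which understates ratios of low genes. Of the 33 members, 32 had a mean of at least 10 CPM over both groups, and Tfeb did not. In all cells, 24 of the 32 (75%) were higher in DiD+, against 48.7% of the 8406 genes over the same minimum, and their median log2 ratio was 0.31, against -0.01. Of the 32, 6 (18.8%) were at least 1.5-fold higher, against 12.1% of all genes, and 1 was at least 1.5-fold lower, against 10.1%. Without the 7 Cd74 cells, 22 of 32 (68.8%) were higher, against 50.5% of 8324 genes, with a median of 0.19 against 0.01. Again 6 were at least 1.5-fold higher, against 12.5%, and 2 were lower, against 9.65%. Leaving out 4 more cells that held at least 4 macrophage or at least 4 erythroid markers gave a median of 0.21 with 4 higher and 2 lower, since Gabarap (0.57) and Atg12 (0.53) came under the limit. Which members were past 1.5-fold was not the same in both sets of cells, and the roles behaved differently, as the plot of ratios by role shows. These levels are shares of a cell's counts. When cells were scaled by their spike-in RNA instead, the median of all genes moved to -0.41 in all cells and to -0.29 without the Cd74 cells, and the members' median lay 0.26 and 0.17 above it. Directions given below are for shares of counts.

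**Figure D1:**
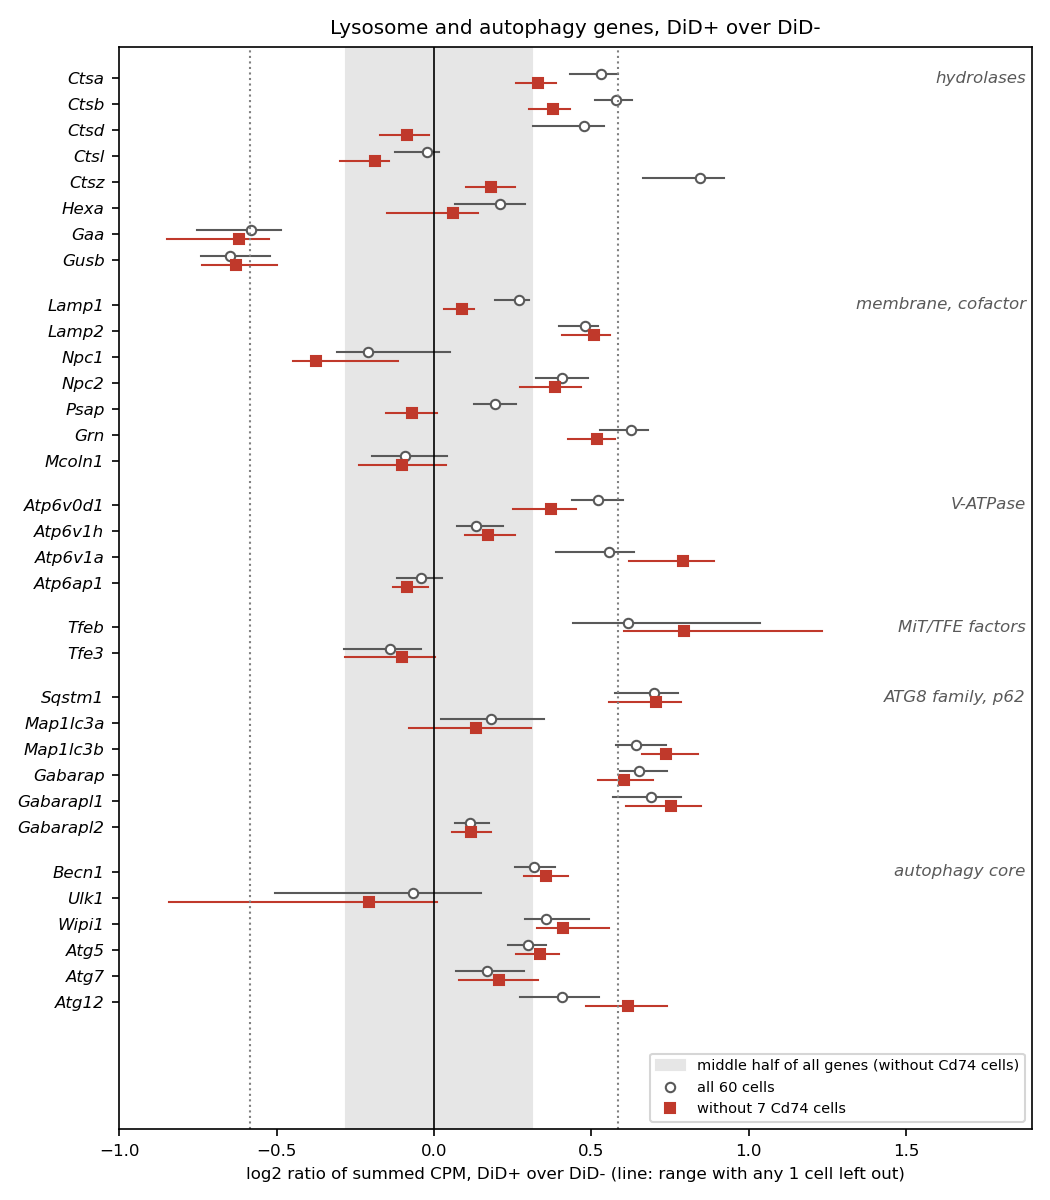
Log2 ratio of summed CPM, DiD+ over DiD-, for the 33 members by role, in all 60 cells (open circles) and without the 7 Cd74 cells (red squares), with lines for the range obtained when any 1 cell was left out and dotted lines at 1.5-fold. The grey band spans the lower to the upper quartile of all genes, and the cathepsins move left without the Cd74 cells while Sqstm1, Map1lc3b, Gabarap and Gabarapl1 stay to the right of it.

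Members of the ATG8 family and Sqstm1 were the highest group in DiD+, and remained so without the Cd74 cells. All 6 were higher in DiD+ in both sets of cells, with a median log2 ratio of 0.65 in all cells and 0.66 without the Cd74 cells. For Map1lc3a this rested on 1 cell, since its log2 ratio without the Cd74 cells was -0.08 when DiD+ cell 22 was left out. The same 4 of them, Sqstm1, Map1lc3b, Gabarap and Gabarapl1, were past 1.5-fold in both, while Map1lc3a and Gabarapl2 had log2 ratios of 0.13 and 0.12 without the Cd74 cells. Under spike-in scaling these last 2 turned negative (-0.14 and -0.26), and Sqstm1, Map1lc3b, Gabarap and Gabarapl1 kept positive log2 ratios of 0.40, 0.45, 0.21 and 0.35. The Cd74-positive wells stood on both sides of the other DiD+ cells for these genes. Their log2 ratio over the other DiD+ cells was 0.29 for Gabarap, with 5 of 6 wells above the median of those cells, and 0.21 for Map1lc3a. It was -0.02 for Gabarapl2, -0.13 for Sqstm1, -0.42 for Map1lc3b and -0.46 for Gabarapl1, and the median of the 6 was -0.08, against -0.14 for all genes.

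Sqstm1 encodes p62, the receptor that carries ubiquitin-tagged cargo into autophagosomes. Without the Cd74 cells it ranged from 259 to 6950 CPM in the 26 DiD+ cells with a median of 1480 CPM, and from 438 to 2819 CPM in the 27 DiD- cells with a median of 1040 CPM. Summed levels were 1959 CPM (95% Poisson interval 1951 to 1967) in DiD+ and 1200 CPM (1193 to 1206) in DiD-, a log2 ratio of 0.71. The groups overlapped: 19 DiD+ cells lay above the DiD- median and 6 lay above every DiD- cell. One DiD+ cell, number 43, held 13.4% of the DiD+ counts, and without it the log2 ratio was 0.56, under the 1.5-fold limit of 0.585. Sqstm1 also had the highest level of the members per kilobase of exon, 584 CPM per kb in DiD+ and 358 in DiD-. Its exons share 580 bases with Mrnip on the other strand, and the libraries did not mark strand, so reads there cannot be told apart.

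Map1lc3b encodes LC3B, the ATG8 protein used most widely to mark autophagosomes. Its level ranged from 150 to 1262 CPM in DiD+ (median 411 CPM) and from 133 to 779 CPM in DiD- (median 250 CPM). The summed levels of 475 CPM (471 to 479) and 285 CPM (282 to 288) gave a log2 ratio of 0.74, and 22 of 26 DiD+ cells lay above the DiD- median. Leaving out any 1 cell kept this ratio past 1.5-fold without the Cd74 cells. In all cells, where the ratio was 0.64, leaving out DiD+ cell 75 or 76 took it to 0.58, just under the limit.

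Gabarap and Gabarapl1 belong to the second branch of the family, which acts mainly in autophagosome maturation. Gabarap ranged from 96.7 to 673 CPM in DiD+ (median 269 CPM) and from 68.8 to 515 CPM in DiD- (median 188 CPM). Its summed log2 ratio was 0.60 without the Cd74 cells and 0.65 with them, so that it sat close to the limit in the first case, and leaving out any of 13 cells took it below, to 0.52 at the lowest (DiD+ cell 41). Gabarapl1 was present at a lower level, from 0.26 to 286 CPM in DiD+ (median 72.4 CPM) and from 0 to 122 CPM in DiD- (median 39.5 CPM). In DiD+, 6 cells lay above every DiD- cell, and the log2 ratio was 0.75 without the Cd74 cells, with no single cell able to bring it under the limit, and 0.69 with them, where DiD+ cells 29 and 43 each could (0.57 without either). Its exons share 570 bases with 1700101I11Rik on the other strand.

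**Figure D2:**
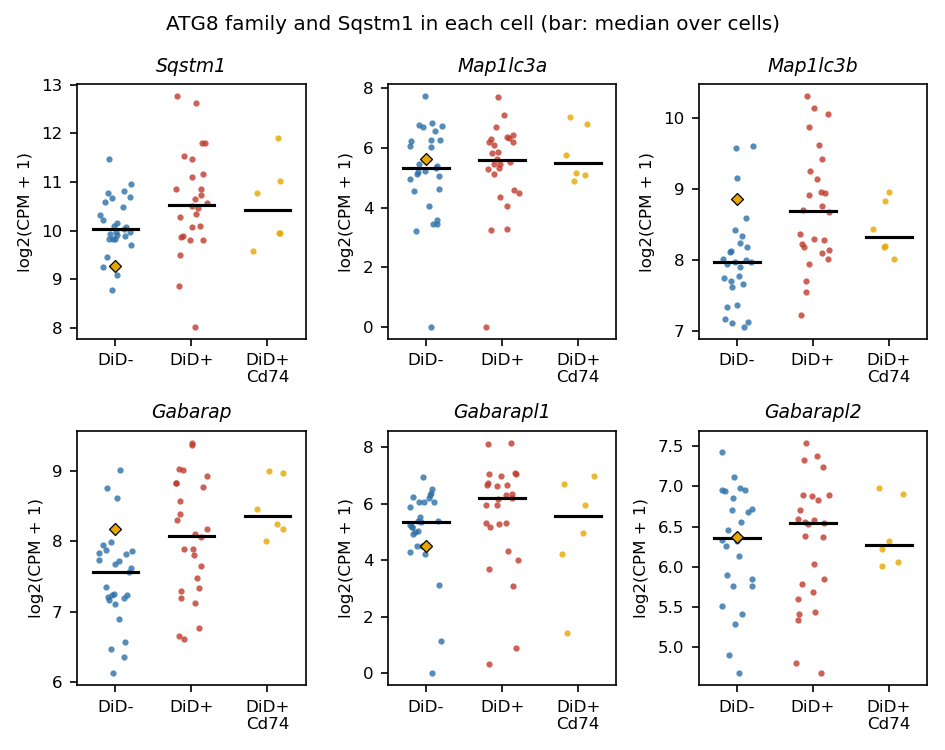
Level of Sqstm1 and the 5 ATG8 family genes in each cell, as log2(CPM + 1), for DiD- cells (blue, with the Cd74-positive cell as a diamond), DiD+ cells without Cd74 (red) and the 6 DiD+ cells with Cd74 (yellow), with bars at the median of the cells without Cd74 in the first pair and of the Cd74 cells in the last. The red cells reach above the blue ones for Sqstm1, Map1lc3b, Gabarap and Gabarapl1 but overlap them throughout.

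Lysosomal hydrolases gave a different picture. In all cells 5 of 8 were higher in DiD+ with a median log2 ratio of 0.34, but without the Cd74 cells 4 of 8 were higher and the median was -0.01. For Ctsz, Ctsd, Ctsb and Ctsa, which encode the proteases cathepsin Z, D and B and the protective protein cathepsin A, the log2 ratio went from 0.85 to 0.18, from 0.48 to -0.09, from 0.58 to 0.38 and from 0.53 to 0.33. Under spike-in scaling without those cells only Ctsb of the 8 kept a positive log2 ratio (0.05). The 6 Cd74-positive wells held 49.9% of the DiD+ counts of Ctsz, 46.3% of those of Ctsd, 32.2% of those of Ctsa and 30.97% of those of Ctsb. Over the 8 hydrolases the median log2 ratio of these wells over the other DiD+ cells was 0.74. In all cells, Ctsb, at 0.58, and Gaa, at -0.58, came closest to the 1.5-fold limit without passing it. Exons of these cathepsin genes also overlap other genes. Ctsa shares 495 bases with Pltp and 324 with Neurl2, Ctsb 774 with Fdft1 and Ctsz 10 with Nelfcd, all on the other strand. Ctsd shares 808 bases with Gm49369 on the same strand.

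Ctsz was the only hydrolase at least 1.5-fold higher in all cells. It ranged from 365 to 1123 CPM in the 6 Cd74-positive DiD+ wells (median 530 CPM), from 0 to 386 CPM in the other DiD+ cells (median 148 CPM) and from 0 to 314 CPM in DiD- cells without Cd74 (median 135 CPM). All 6 of the Cd74-positive wells lay above every one of those DiD- cells, against 3 of the other 26 DiD+ cells. Ctsd was also highest in the Cd74-positive wells, but the other DiD+ cells had a lower median than the DiD- cells. Those groups overlapped, with 10 of the other 26 DiD+ cells above the median of DiD- cells without Cd74 and 3 above every one of them. Ctsd levels were as follows. It lay at 1051 to 4189 CPM (median 2219 CPM) in the Cd74-positive DiD+ wells, 161 to 1531 CPM (median 581 CPM) in the other DiD+ cells and 305 to 1301 CPM (median 695 CPM) in DiD- cells. The single Cd74-positive DiD- well had 167 CPM of Ctsz and 991 CPM of Ctsd, both inside the range of the other DiD- cells. Whether macrophage RNA in these wells set the cathepsin levels was not tested.

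Ctsb remained higher in DiD+ without those wells, from 538 to 4141 CPM (median 1636 CPM) against 717 to 2842 CPM (median 1312 CPM), with 21 of 26 DiD+ cells above the DiD- median. Ctsl, cathepsin L, was the one cathepsin with no excess in either set of cells (log2 ratio -0.02 in all cells and -0.19 without Cd74). It shares 1742 exon bases with Gm47123 on the other strand and 395 with Gm49230 on the same strand. Hexa, a subunit of beta-hexosaminidase, had 0.21 and 0.06, and it was -0.15 without the Cd74 cells when DiD+ cell 41 was left out.

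Gaa and Gusb were the members that were lower in DiD+ by the most. Gaa, which encodes the acid alpha-glucosidase that clears lysosomal glycogen, ranged from 0 to 319 CPM in DiD+ without Cd74 (median 45.1 CPM) and from 1.25 to 289 CPM in DiD- (median 100.5 CPM). Gaa had a count in 19 of 26 DiD+ cells (73.1%, exact 95% interval 52.2 to 88.4%) and in 27 of 27 DiD- cells (lower bound 87.2%), and the summed log2 ratio was -0.62. Thinning each cell to 2200000 counts left 19 DiD+ and 27 DiD- cells with a count, as before. Gusb, the beta-glucuronidase often used as a reference gene in qPCR, ranged from 0.27 to 373 CPM (median 111 CPM) against 34.8 to 472 CPM (median 163 CPM), with 5 of 26 DiD+ cells above the DiD- median. Its log2 ratio was -0.63 without the Cd74 cells and -0.65 with them. Both stood close to the limit. Leaving out DiD- cell 66 brought Gusb to -0.50 and Gaa to -0.53 without the Cd74 cells, and any of 4 cells for Gusb and 13 for Gaa ended the 1.5-fold difference.

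**Figure D3:**
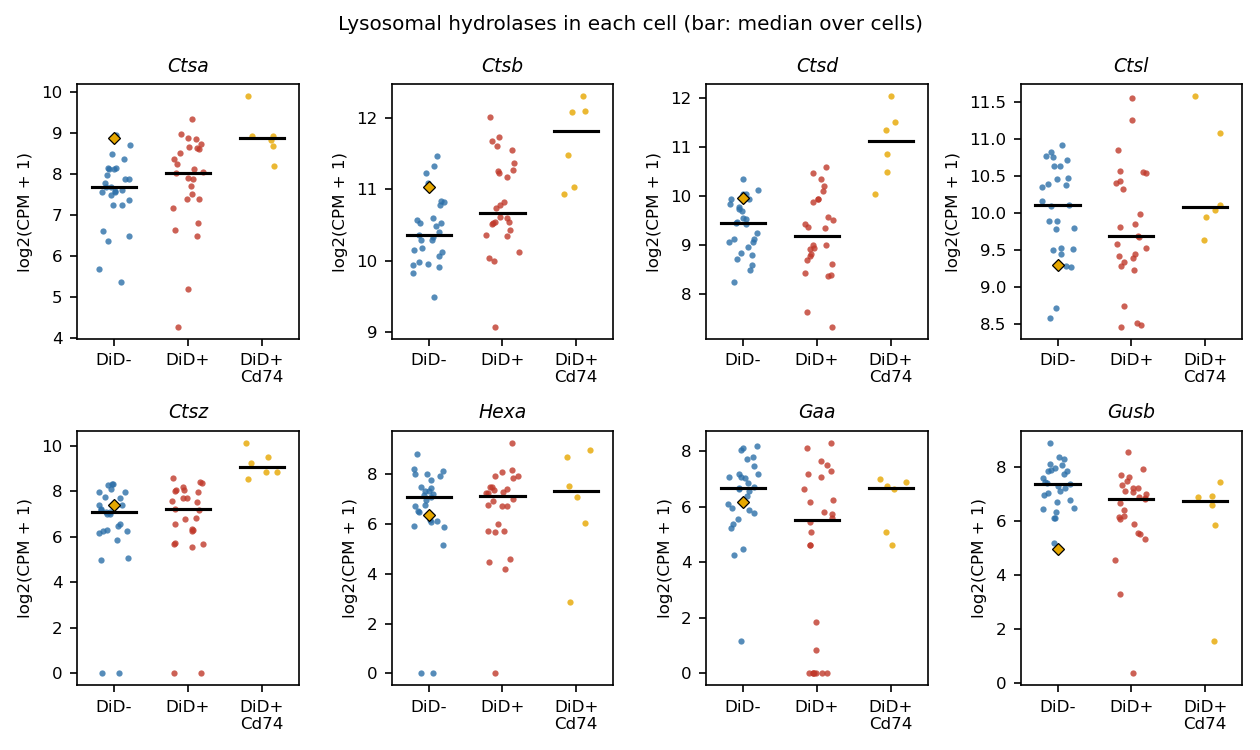
Level of the 8 hydrolases in each cell, as log2(CPM + 1), with groups, colours and median bars as in the plot of the ATG8 family. The Cd74-positive DiD+ wells have the highest medians for Ctsa, Ctsb, Ctsd and Ctsz, and by a small margin for Hexa and Gaa, with overlap of the other cells. Ctsl does not separate the groups, and 7 of the other DiD+ cells have no Gaa counts.

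Among genes of the lysosomal membrane and cofactors, the companion pair Lamp1 and Lamp2, the most abundant membrane glycoproteins of the lysosome, differed. Lamp2, needed for fusion with autophagosomes and for chaperone-mediated autophagy, had a log2 ratio of 0.51 without the Cd74 cells and 0.48 with them. It ranged from 63.3 to 1234 CPM in DiD+ (median 350 CPM) and from 51.6 to 443 CPM in DiD- (median 238 CPM), and 22 of 26 DiD+ cells lay above the DiD- median, 7 of them above every DiD- cell. Lamp1 went from 0.27 to 0.09 when the Cd74 cells were left out, and 10 of 26 DiD+ cells lay above the DiD- median. Grn, which encodes the lysosomal cofactor progranulin, was past 1.5-fold in all cells (0.63) and at 0.52 without the Cd74 cells. There it ranged from 134 to 1878 CPM in DiD+ (median 564 CPM) and from 40.4 to 967 CPM in DiD- (median 489 CPM), and in all cells leaving out any of 4 DiD+ cells (17, 24, 68 or 69) ended the 1.5-fold difference, with 0.53 without cell 24. Its partner Psap, the precursor of the saposins that assist sphingolipid breakdown, went from 0.19 to -0.07, and to 0.01 when DiD+ cell 82 was also left out.

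Cholesterol leaves the lysosome by hand-over from the soluble Npc2 to the membrane protein Npc1. Npc2 had log2 ratios of 0.41 and 0.38 with and without the Cd74 cells, and Npc1, a low gene, -0.21 and -0.38. For Npc1 the sum and the typical cell differed in direction, with medians of 10.3 CPM in DiD+ and 8.50 CPM in DiD- without the Cd74 cells. DiD- cell 77 held 21.1% of the DiD- counts, and leaving it out gave -0.11 without the Cd74 cells and 0.05 in all cells. Mcoln1, the lysosomal calcium channel TRPML1, had -0.09 and -0.10, and left at 0 counts 6 of 26 DiD+ and 4 of 27 DiD- cells.

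Of the V-ATPase genes, Atp6v1a stood out in cells without Cd74. It encodes the subunit of the pump that hydrolyses ATP. It ranged from 0 to 361 CPM in DiD+ (median 79.8 CPM) and from 0 to 154 CPM in DiD- (median 54.3 CPM), and the summed levels were 92.6 CPM (90.9 to 94.4) and 53.0 CPM (51.7 to 54.4). The log2 ratio of 0.79 was the highest of the 32 members without the Cd74 cells and stayed past 1.5-fold whichever cell was left out. Under spike-in scaling it was 0.74, the one member still past the limit, and by medians over cells 0.55. The Cd74-positive DiD+ wells had the opposite standing for this gene from the cathepsins, with 0 to 44.1 CPM (median 18.7 CPM), none of the 6 above the DiD- median and 4.82% of the DiD+ counts, so that the ratio in all cells was lower, 0.56. Atp6v0d1, of the membrane sector, had 0.52 in all cells and 0.37 without Cd74. Atp6v1h had 0.13 and 0.17, and Atp6ap1, an accessory subunit, had -0.04 and -0.09.

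The transcription factors themselves were low. Tfeb had counts in 10 of 26 DiD+ cells (38.5%, exact 95% interval 20.2 to 59.4%) and 6 of 27 DiD- cells (22.2%, 8.62 to 42.3%) without Cd74, and summed levels of 11.7 CPM (11.1 to 12.4) and 6.34 CPM (5.89 to 6.81), below the minimum of 10 CPM as a mean of both groups. Its log2 ratio of 0.80 therefore rests on few cells, and ranged from 0.60 to 1.24 when 1 cell was left out. Tfe3 had 31.9 CPM in DiD+ and 34.3 CPM in DiD-, a log2 ratio of -0.10 that was 0.00 when DiD- cell 40 was left out. Activity of these factors is set largely by their entry into the nucleus, which these libraries do not measure.

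Core autophagy genes were slightly higher in DiD+ with 1 exception. Of the 6, 5 had positive log2 ratios without the Cd74 cells, with a median of 0.35 over the 6, and under spike-in scaling 4 of them stayed positive while Atg5 turned to -0.10. Atg12, the ubiquitin-like protein that is conjugated to Atg5, was past 1.5-fold at 0.62, from 0 to 182 CPM in DiD+ (median 66.1 CPM) and from 0 to 147 CPM in DiD- (median 41.1 CPM). Any of 12 cells, left out alone, ended that 1.5-fold difference, with 0.48 without DiD+ cell 82, and with the Cd74 cells the ratio was 0.41, since only 8.17% of its DiD+ counts lay in them. Atg5 (0.34), Atg7 (0.21), the activating enzyme of both conjugation systems, and the phosphoinositide-binding Wipi1 (0.41) were nearer to 0. Becn1, of the lipid kinase complex that starts the membrane, had 0.36, but 3104 of its exon bases overlap Cntd1 on the other strand. Ulk1, the starting kinase of the pathway, was the exception at -0.21. It had counts in 11 of 26 DiD+ and 14 of 27 DiD- cells, and its direction rested on single cells. DiD+ cell 38 held 40.6% of its DiD+ counts, and the log2 ratio was -0.84 without that cell and 0.01 without DiD- cell 34.

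A wider set of 166 other lysosome and autophagy genes, written as 5 lists by function, was summed in the same way. Without the Cd74 cells, 123 of them were over the minimum, with a median log2 ratio of 0.16, against 0.01 for all genes. Of these 82 (66.7%) were higher in DiD+, against 50.5% of all genes. Of the 123, 25 (20.3%) were at least 1.5-fold higher and 5 (4.07%) at least 1.5-fold lower, against 12.5% and 9.65% of all genes. By list, 7 of 34 hydrolases (20.6%), 6 of 20 membrane and sorting genes (30%) and 7 of 36 autophagy genes (19.4%) were at least 1.5-fold higher. The shares of further V-ATPase genes (2 of 13, 15.4%) and regulators (3 of 20, 15%) were near that of all genes.

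The 5 highest of the wider lists without Cd74 cells were Fnip1, Gm2a, Atg4a, Foxo1 and Scarb2. Fnip1, a partner of folliculin in nutrient sensing at the lysosome, had 17.5 CPM in DiD+ and 5.23 CPM in DiD-, a log2 ratio of 1.57. Gm2a, the activator protein of ganglioside breakdown, had 39.9 and 13.1 CPM (1.54), with counts in 18 of 26 DiD+ and 12 of 27 DiD- cells. Atg4a, a protease that trims ATG8 proteins, had 45.95 and 15.4 CPM (1.51) and was found in 24 of 26 DiD+ and 17 of 27 DiD- cells. Foxo1, a transcription factor that activates autophagy genes, had 18.5 and 6.33 CPM (1.41), and Scarb2, the membrane protein LIMP-2 that delivers beta-glucocerebrosidase to the lysosome, 63.6 and 24.3 CPM (1.36). The 5 lowest were Acp2, lysosomal acid phosphatase (-0.88), Nagpa, which uncovers the mannose 6-phosphate tag (-0.80), Rptor, the mTORC1 subunit raptor (-0.68), Nbr1, a cargo receptor like p62 (-0.60), and the cystine exporter Ctns (-0.60). For Sqstm1 and Nbr1, both cargo receptors, the ratios had opposite signs.

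**Figure D4:**
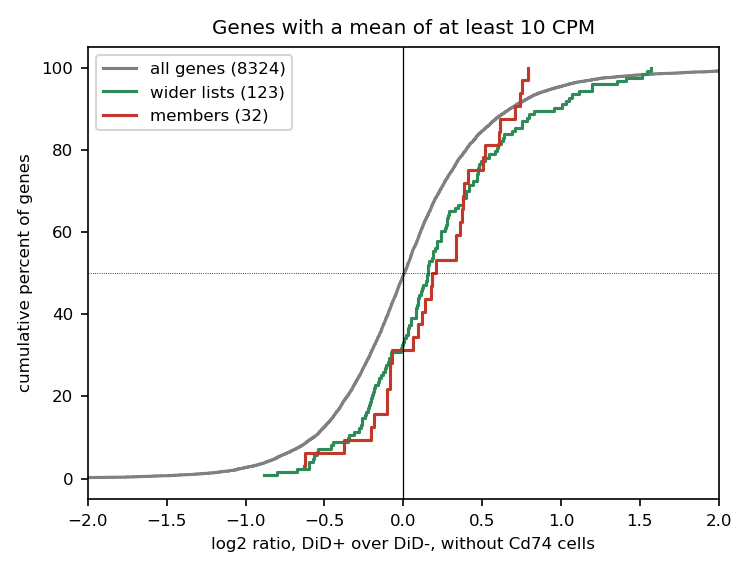
Cumulative percent of genes against the log2 ratio of DiD+ over DiD- without the Cd74 cells, for the 8324 genes over the minimum (grey), the 123 genes of the wider lists (green) and the 32 members (red). Both lists cross the 50% line to the right of all genes, at 0.16 and 0.19 against 0.01, and the members end at 0.79.

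Several wider-list genes, named after their values were seen, were past 1.5-fold in all cells through the Cd74-positive wells. Those wells held 96.2% of the DiD+ counts of Ctss, 97.1% of Ctsc, 96.5% of Cd68, 100% of Laptm5 and 99.98% of Slc11a1, all lysosomal genes known from macrophages. None of the 5 was over the minimum without them. No member was concentrated to this extent, and the highest share was that of Ctsz.

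Pairs of members were correlated across DiD+ cells more often than pairs of all genes, and across DiD- cells about as often. Across the 26 DiD+ cells without Cd74, the 496 pairs of members had a median Spearman rho of 0.14, and 9.88% of pairs were over 0.5, against a median of 0.02 and 1.12% for pairs of all genes over the minimum. Across the 27 DiD- cells the median was 0.07 and 1.01% of pairs were over 0.5, against 0.01 and 0.86%. The highest pairs in DiD+ joined the ATG8 family with cathepsins, Gabarap with Ctsb (0.78), Map1lc3b with Ctsl (0.76) and Map1lc3b with Ctsa (0.74). The pairs of all genes were not matched to the members for level. From a minimum of 50 CPM, 26 of 32 members remained without the Cd74 cells, against 3983 of 8324 genes. These are descriptions over cells that share the scaling to each cell's total, and the difference between the groups was not tested.

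In DiD+ cells many members had negative correlations with cell cycle genes. The summed level of 14 S phase genes had a median of 1079 CPM in the 26 DiD+ cells (145 to 8910 CPM) and 3013 CPM in the 27 DiD- cells (683 to 9373 CPM). Over the DiD+ cells, the sum of the 8 hydrolases had a Spearman rho of -0.78 with the S phase sum and -0.71 with a G2/M sum, and the sum of the 5 ATG8 genes had -0.73 and -0.75. The V-ATPase sum did not share this, with -0.24 and -0.03 in DiD+. That sum is carried by the accessory subunit Atp6ap1, at 349 CPM in DiD+ against 97.1 CPM for Atp6v1h, 92.6 CPM for Atp6v1a and 55.2 CPM for Atp6v0d1. Singly, their rho with the S phase sum was -0.28, 0.22, -0.21 and -0.29 in that order. In DiD- cells the 4 values of the hydrolase and ATG8 sums were -0.27, -0.42, -0.43 and -0.30. The hydrolase sum is carried by Ctsb, Ctsl and Ctsd. Taken singly in DiD+ cells, 24 of 32 members (75%) had a negative rho with the S phase sum, against 43.8% of 8295 genes, and 7 (21.9%) lay below -0.5, against 1.39%. Here too the other genes were not matched for level. The 7 members were Ctsb (-0.73), Ctsl (-0.71), Gabarap (-0.71), Map1lc3b (-0.65), Gabarapl1 (-0.63), Lamp2 (-0.54) and Npc2 (-0.53). In DiD- cells 21 of 32 (65.6%) were negative and none lay below -0.5, where Map1lc3b had the lowest (-0.49).

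Ctsl shows that a negative relation to S phase genes within DiD+ cells need not go with a higher level in DiD+, since its summed level was lower there. Atg7 had the opposite sign, with a rho of 0.52 in DiD+. The sums were also correlated with the share of spike-in counts in DiD+ cells, a measure of how little RNA a cell gave, with a rho of 0.36 for the hydrolases and 0.42 for the ATG8 family, but -0.17 for the V-ATPase. With total counts rho was -0.19, -0.07 and -0.29 in that order. Whether RNA content, the cycle or the fixed total of CPM lies behind these correlations was not tested, and they are given with no test.

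**Figure D5:**
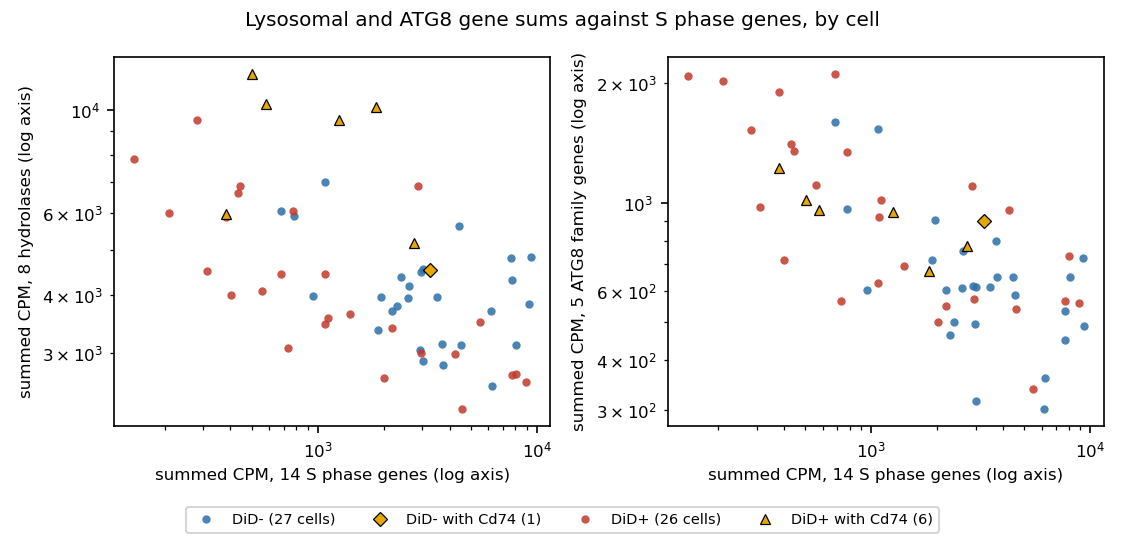
Summed CPM of the 8 hydrolases (left) and of the 5 ATG8 family genes (right) against the summed CPM of 14 S phase genes in each cell, on log axes, for DiD- (blue) and DiD+ (red) cells without Cd74 and for the Cd74-positive cells (yellow, triangles DiD+, diamond DiD-). DiD+ cells spread from high lysosomal and low S phase sums to the reverse (rho -0.78 and -0.73), DiD- cells lie mostly at the S phase end, and 4 of the 5 highest hydrolase sums are Cd74-positive DiD+ wells.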

How the data were processed

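Single PyMT-Bo1 cells from mouse bones were the samples, and DiD intensity in the labels gave the group. Per the methods and labels, reads were aligned with STAR to GRCm38/mm10 with spike-in and transgene sequences added, and quantified with RSEM. The authors deposited estimated counts per gene and cell, not normalized. The authors also deposited a signal table normalized with BASiCS, used only as an alternative scaling. All columns of values were matched to a cell, with 0 left unused.

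Estimated counts were rounded (96.6% were whole) and summed by group, and totals excluded spike-ins and transgenes. Genes were compared from a mean of 10 CPM over both groups, with a pseudocount of 1 CPM. Each group is 1 sample, so no p-value was computed. Intervals at 95% are exact Poisson on summed counts or Clopper-Pearson on shares of cells. Reads without molecular identifiers are not independent molecules, and cells are not replicates. A total of 0 counts in a group of cells without Cd74 allows up to 0.026 CPM (3 counts). Cells with 10 or more Cd74 counts were left out in the second set. The ratio code was tested on simulated data.

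The members and lists were chosen with earlier results of these data known. All members are described, members past 1.5-fold with their cells, and from the wider lists the 5 highest and 5 lowest ratios. Exon overlaps came from GENCODE vM21 and promoters from RefSeq. Alternatives were edgeR TMM and DESeq2 factors, spike-in scaling, BASiCS values, means and medians over cells, other pseudocounts and minima, thinning, and leaving out each cell. Tools were Python 3.11.15, numpy 2.4.6, pandas 2.3.3, scipy 1.17.1, R 4.3.3, edgeR 4.0.16 and DESeq2 1.42.0.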

Additional observations from a re-analysis of the deposited data

How the results depend on the processing

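Scaling by spike-ins turned the members' median log2 ratio to -0.15 in all cells and -0.11 without the Cd74 cells, and left 0 and 1 members at least 1.5-fold higher and 5 lower in all cells. It moved all genes likewise, and relative to them the medians stayed positive, at 0.26 and 0.17. In all cells the median was 0.25 with the BASiCS values and 0.41 from a minimum of 50 CPM (0.26 without the Cd74 cells). Medians over cells left 2 members higher in all cells and 1 lower without the Cd74 cells. In all cells 2 were lower with BASiCS values, TMM factors, DESeq2 size factors or a pseudocount of 0.1 CPM, and without the Cd74 cells 1 was lower with a pseudocount of 10 CPM. With the main scaling, a limit of 2-fold left 0 in both sets of cells. Members past that limit under other scalings included Gaa (-1.01) and Gusb (-1.08) with spike-ins in all cells. Gaa was also past it by medians over cells without the Cd74 cells (-1.14).

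Leaving out each cell in turn gave medians of 0.27 to 0.35 in all cells and 0.15 to 0.28 without the Cd74 cells. The members higher were then 4 to 8 and 3 to 6, and those lower 0 to 2 in both sets. A Cd74 minimum of 1 or 100 counts selected the same cells. No paired analysis was possible because the result comes from no test, with 1 sample per group. Thinning to 2200000 counts per cell took 1 cell with a count from Npc1 (DiD-), Atg12 (DiD+) and Tfe3 (each group) and none from the other members in cells without Cd74.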
